A study of Mus musculus with 14 samples.

Results

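The genes described here are 9 transcripts of the ATF4 arm of the integrated stress response, Atf4, Atf5, Cebpb, Ddit3, Asns, Chac1, Trib3, Ddit4 and Sesn2, out of 54446 genes in the count table. They were chosen by name, through the Ensembl IDs of those symbols on GRCm38. The 9 symbols matched 10 rows, because Ddit3 has a second ID of 105 exon bases that lie inside the first; that row was listed at 0 in all 14 libraries and was not tested. The other 9 rows all passed the filter on low counts.

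RNA came from heart nuclei of ICR mice, enriched for PCM1, a protein that marks cardiomyocyte nuclei. Control mice (5 libraries) received no virus. The other mice received adeno-associated virus at postnatal day 7, at 1E11 genome copies per virus into the peritoneal cavity, and hearts were taken on day 12. The virus carried human MEF2A, a muscle transcription factor (4 libraries), YAP5SA, a form of the Hippo pathway coactivator YAP that resists inactivation by phosphorylation (3 libraries), or both were given as separate viruses (2 libraries, here YAP5SA_MEF2A). In each vector a cardiac troponin T promoter, active in cardiomyocytes, drives the transgene. Because Control mice received no empty virus, a difference from Control holds the virus and its transgene together. The labels give 2 batches. Control 1 and 2, MEF2A 1 and 2, YAP5SA 1 and 2 and both YAP5SA_MEF2A libraries are in batch 1. YAP5SA 3 is the only YAP5SA library in batch 2. A batch 2 value with YAP5SA therefore rests on that library, its standard error comes from the other groups, and no p is given for it. The labels do not say that libraries are separate animals, so a p-value measures the spread between these libraries.

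The integrated stress response begins with kinases that phosphorylate the translation factor eIF2 when amino acids, haem or protein folding fail, or when double-stranded RNA is sensed. General translation then falls, while the messenger of Atf4 is translated better. The ATF4 protein, a basic leucine zipper (bZIP) transcription factor, pairs with C/EBP and related factors and raises genes of amino acid synthesis, transport and tRNA charging, and in cardiomyocytes this program is well known from mitochondrial stress. The libraries measure RNA in nuclei, so they hold nothing on the translation of Atf4. In bulk samples, fewer cells of a type and less RNA per cell cannot be told apart.

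Library totals ran from 16171068 to 24027622 counts. Mitochondrial genes took 60.7% of the counts in Control 1, 67.5% in Control 2, 32.2% in YAP5SA 3 and 3.80% to 23.2% in the other 11 libraries. Values are CPM, counts scaled to a common library size after TMM factors. The 10 cardiomyocyte markers were detected in all 14 libraries, and their summed level was 27632 to 39668 CPM in YAP5SA and 50816 to 83728 CPM in Control; 3 of the 10 were called lower in YAP5SA and 0 higher. Of the markers of other cell types, 4 of 12 endothelial ones were called lower in YAP5SA, 2 of 12 fibroblast ones and 1 of 8 mural and 1 of 12 macrophage ones higher, and 0 of the 6 lymphocyte and 6 erythroid ones tested were called. The summed mural level was 1403, 660.1 and 1135 CPM in YAP5SA 1 to 3 and 482 to 691 CPM in Control. The summed level of 12 macrophage markers was 1093 CPM in YAP5SA 3 and 55.6 to 209 CPM in the other 13 libraries. By Xist and Y-linked transcripts all 3 YAP5SA libraries were male and both YAP5SA_MEF2A libraries female, while Control and MEF2A held both sexes.

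With YAP5SA, 5 of the 9 genes rose against Control (Atf4, Cebpb, Asns, Chac1 and Ddit4), 1 fell (Ddit3, the gene of CHOP) and 3 did not pass the test (Atf5, Trib3 and Sesn2). Calls come from edgeR's quasi-likelihood test with a batch term, at an adjusted p (Benjamini-Hochberg over the 17987 genes tested) under 0.05. Of all genes tested, 5.69% were called higher and 4.17% lower in this comparison. How many of all genes separate the groups without overlap was not counted, so a lack of overlap is given below as description only. The median log2 fold change of the 9 genes was 1.48, beside 0.06 for all genes tested. Without Control 1 and 2 the count was again 6 of 9, with Atf5 in place of Chac1. The count was 2 without YAP5SA 1 and 3 without YAP5SA 3, and 2 in batch 1 alone.

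**Figure D1:**
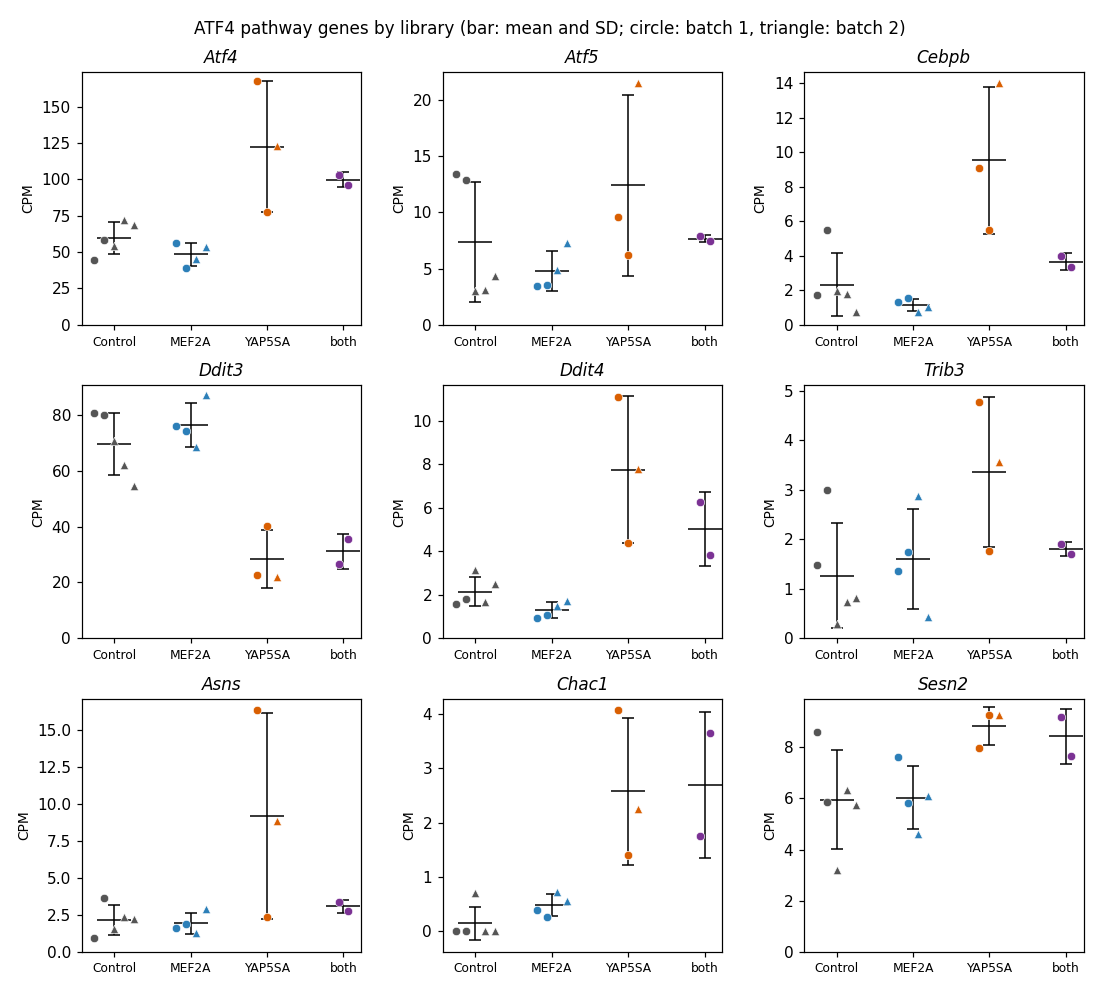
CPM of the 9 genes in each library, by group on the x axis (both is YAP5SA_MEF2A). Points are libraries, circles batch 1 and triangles batch 2, and bars give the mean and SD. For Ddit3 all 3 YAP5SA libraries (22.1 to 40.2 CPM) sit below all 5 Control libraries (54.7 to 80.6 CPM), and for Atf4, Ddit4, Chac1 and Cebpb they sit above them.

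Levels can be set against each other only per length of exon. In Control, Ddit3 was the most abundant of the 9 at 40.6 ± 6.55 CPM per kilobase (SD, n = 5), followed by Atf4 at 25.3 ± 4.75 CPM per kilobase. Atf5 (3.68 ± 2.68), Sesn2 (1.71 ± 0.556), Cebpb (1.55 ± 1.21), Ddit4 (1.22 ± 0.380), Asns (0.779 ± 0.375) and Trib3 (0.594 ± 0.499) followed, and Chac1 was lowest at 0.085 ± 0.189 CPM per kilobase. From Atf5 on, the mean ± SD of each gene overlapped with that of its neighbour in this order, while those of Ddit3 and Atf4 did not overlap. With YAP5SA the order of the first pair was turned, with Atf4 at 51.9 ± 19.1 and Ddit3 at 16.6 ± 5.99 CPM per kilobase (SD, n = 3).

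Atf4 (chr15:80255184-80257541, plus strand) encodes the factor that names the pathway. Its level was 44.4, 58.4, 54.4, 72.4 and 68.5 CPM in Control 1 to 5, and 56.0, 39.1, 45.0 and 53.5 CPM in MEF2A 1 to 4. It was 167, 77.4 and 123 CPM in YAP5SA 1 to 3, and 103 and 96.1 CPM in YAP5SA_MEF2A 1 and 2. Every library that received YAP5SA, alone or with MEF2A, was above every library that did not. YAP5SA against Control gave a log2 fold change of 1.09 ± 0.23 (SE, adjusted p = 0.00599), a 2.13-fold rise. Within batches it was 1.21 ± 0.35 in batch 1 (adjusted p = 0.0588) and 0.91 ± 0.25 in batch 2, from YAP5SA 3 alone. Without YAP5SA 1, the highest library, it was 0.76 ± 0.21 (adjusted p = 0.0533).

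Atf5 (chr7:44812256-44816658, minus strand) encodes a close relative of ATF4 that is likewise translated better under stress and is known for the mitochondrial stress program. It measured 13.4, 12.9, 2.98, 3.06 and 4.31 CPM in Control 1 to 5, and 3.48, 3.56, 4.85 and 7.23 CPM in MEF2A 1 to 4. In YAP5SA 1 to 3 it measured 9.54, 6.17 and 21.5 CPM, and in YAP5SA_MEF2A 7.87 and 7.46 CPM. The groups overlapped, because Control 1 and 2 stood above all libraries but YAP5SA 3. These are the 3 libraries with the largest mitochondrial share of counts. The change with YAP5SA was 0.83 ± 0.55 on the log2 scale (adjusted p = 0.374). In batch 1 it was -0.79 ± 0.35 (adjusted p = 0.174) and in batch 2, from YAP5SA 3 alone, it was 2.63 ± 0.48. Without Control 1 and 2, which leaves no Control library in batch 1, it was 2.39 ± 0.37 (adjusted p = 0.00184). Without YAP5SA 3 as well it was 1.97 ± 0.55 and was not called (adjusted p = 0.178). With library totals alone in place of TMM factors it was called, at 1.52 ± 0.43 (adjusted p = 0.0244) beside an all-gene median of 0.69. Whether Atf5 is called thus depends on these libraries and on the scaling. Atf5 shares 82 exon bases with Nup62, a nuclear pore gene, whose own change was 0.24 ± 0.24 (adjusted p = 0.595).

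**Figure D2:**
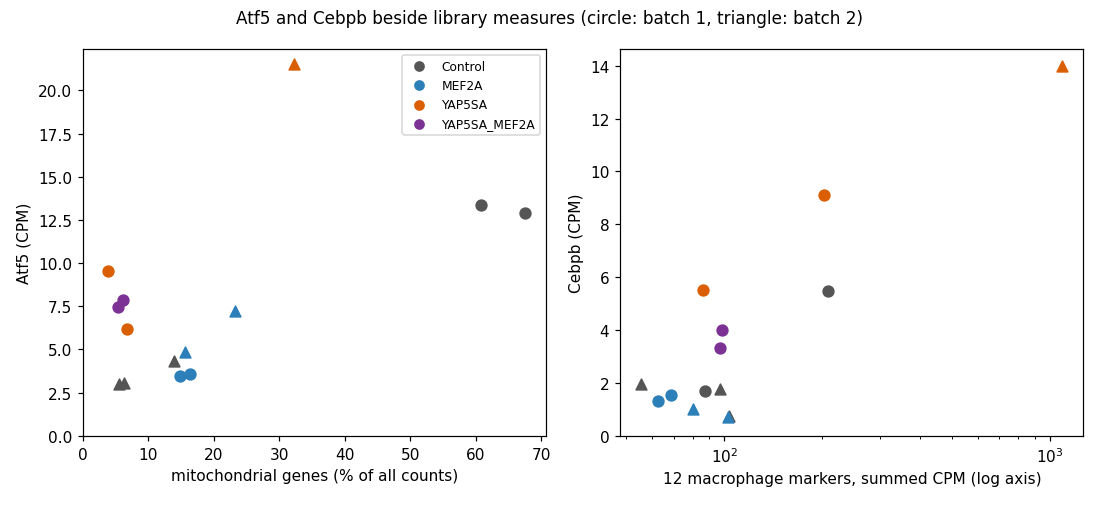
Left, Atf5 CPM against the share of counts from mitochondrial genes. Right, Cebpb CPM against the summed CPM of 12 macrophage markers on a log axis. Each point is a library, circles batch 1 and triangles batch 2, coloured by group. Atf5 was at 12.9 CPM or more in the 3 libraries with a mitochondrial share of 32.2% or more, and Cebpb was highest, at 13.98 CPM, in the library with 1093 CPM of macrophage markers.

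Cebpb (chr2:167688915-167690418, plus strand) encodes C/EBPβ, a bZIP factor that pairs with ATF4 and is also abundant in myeloid cells. Control 1 to 5 held 1.70, 5.48, 1.96, 1.78 and 0.732 CPM, and MEF2A 1 to 4 held 1.31, 1.56, 0.720 and 1.03 CPM. YAP5SA 1 to 3 held 9.11, 5.51 and 13.98 CPM, and YAP5SA_MEF2A held 3.99 and 3.33 CPM. YAP5SA 2 was above Control 2 by a small margin only, and the libraries with both viruses lay within the Control range. The change with YAP5SA was 2.10 ± 0.52 (adjusted p = 0.0161), a 4.28-fold rise. It was 0.99 ± 0.60 in batch 1 (adjusted p = 0.310) and 3.23 ± 0.71 in batch 2, from YAP5SA 3 alone. Without YAP5SA 3 it was 1.17 ± 0.62 and was not called (adjusted p = 0.354).

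The order of the libraries by macrophage markers and by Cebpb was alike in part. The summed marker level was 1093 CPM in YAP5SA 3, 209 CPM in Control 2 and 203 CPM in YAP5SA 1, the libraries where Cebpb was at 13.98, 5.48 and 9.11 CPM. In YAP5SA 2 the markers were at 86.0 CPM, inside the Control range, with Cebpb at 5.51 CPM. Control 5 and MEF2A 3, at 103 CPM of markers each, had Cebpb at 0.732 and 0.720 CPM, and YAP5SA_MEF2A 1 and 2, at 98.3 and 96.8 CPM, had it at 3.99 and 3.33 CPM. All 12 markers were detected in each of the 3 YAP5SA libraries, and 1 of the 12 was called higher with YAP5SA. The median log2 fold change of the 12 was 1.80, beside 0.06 for all genes tested. In edgeR 7 of the 12 had an unadjusted p under 0.05 and were higher, and 0 were lower at that level. Adgre1, Cx3cr1 and Fcgr1 were at 0 in Control 3 and Cd163 was at 0 in Control 2. Cebpb also shares 312 of its 1504 exon bases with Tmem189 on the opposite strand, and the libraries do not keep strand. Tmem189 rose by 2.13 ± 0.25 (adjusted p = 4.8e-05), from 11.8 to 27.3 CPM in Control to 47.0 to 88.9 CPM in YAP5SA. The part of the macrophage markers and of Tmem189 in the Cebpb value was not tested.

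Ddit3 (chr10:127290774-127296288, plus strand) encodes CHOP, a bZIP factor that ATF4 is known to raise and that is linked to cell death in prolonged stress. Its level was 80.6, 79.8, 70.5, 62.2 and 54.7 CPM in Control 1 to 5, and 75.9, 74.1, 68.5 and 87.1 CPM in MEF2A 1 to 4. It was 22.8, 40.2 and 22.1 CPM in YAP5SA 1 to 3, and 26.6 and 35.6 CPM in YAP5SA_MEF2A 1 and 2. Every library with YAP5SA lay below every library without it, the reverse of Atf4. The change with YAP5SA was -1.36 ± 0.22 on the log2 scale (adjusted p = 0.000928), 2.57-fold lower. It was -1.39 ± 0.28 in batch 1 (adjusted p = 0.0208) and -1.50 ± 0.30 in batch 2, from YAP5SA 3 alone. The call held when any 1 of the 14 libraries was left out.

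Under TMM, RLE and upper-quartile scaling Ddit3 was called. With library totals alone in place of such factors, the all-gene median shifted from 0.06 to 0.69 and Ddit3 was not called, at -0.67 ± 0.41 (adjusted p = 0.302), but its distance from that median was -1.36. With library totals alone Ddit3 was not called in the other comparisons that had called it, and the all-gene medians shifted there too. It was at -0.43 ± 0.48 beside a median of 0.84 with both viruses against Control, at -1.003 ± 0.40 beside 0.51 with YAP5SA against MEF2A and at -0.76 ± 0.47 beside 0.67 with both viruses against MEF2A, and its distances from those medians were -1.27, -1.51 and -1.44. Of 12 endothelial markers 4 were called lower in YAP5SA against Control and 0 higher, with a median of -0.74. Their summed level was 434 to 1135 CPM in Control and 342 to 485 CPM in YAP5SA, so the groups overlapped. Of 10 cardiomyocyte markers 3 were called lower and 0 higher, with a median of -0.53. Their summed level was 50816 to 83728 CPM in Control and 80326 to 82816 CPM in MEF2A. It was 27632 to 39668 CPM in YAP5SA and 37898 to 42372 CPM in YAP5SA_MEF2A. The part of either set of markers in the Ddit3 value was not tested. Ddit3 shares 68 exon bases with Mars, a tRNA synthetase gene on the opposite strand, which measured 39.0 to 64.8 CPM in Control and 51.5 to 68.6 CPM in YAP5SA (0.23 ± 0.20, adjusted p = 0.526). It shares 13 with Gm4189, at 0 to 2.26 CPM in all libraries.

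**Figure D3:**
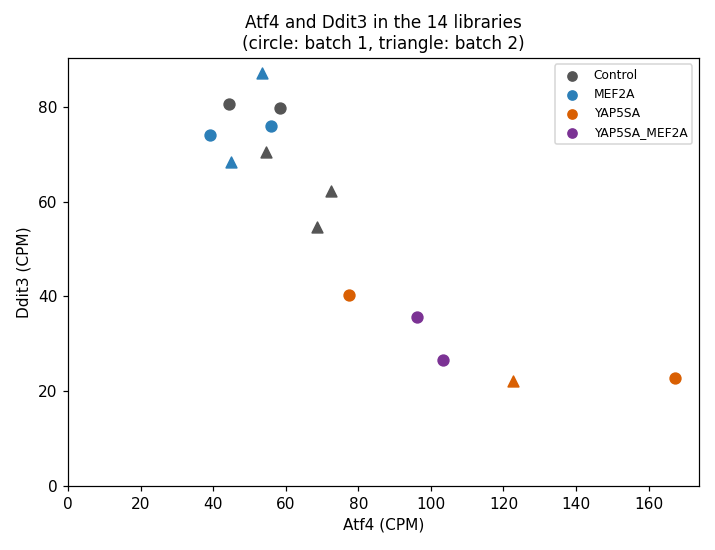
Ddit3 CPM (y axis) against Atf4 CPM (x axis) in the 14 libraries, coloured by group, circles batch 1 and triangles batch 2. The 5 libraries with YAP5SA have Atf4 at 77.4 CPM or more and Ddit3 at 40.2 CPM or less, and the 9 without it have Atf4 at 72.4 CPM or less and Ddit3 at 54.7 CPM or more.

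Across the 14 libraries, log2 CPM of Atf4 correlated with that of Ddit3 at r = -0.93, with Ddit4 at 0.90 and with Asns at 0.86, but with Atf5 at 0.43 and Trib3 at 0.45. The points share groups, batches and scaling, and the values are a description. Among 11148 genes of sufficient level, the 5 with the pattern most like Atf4 were Coro1b (r = 0.95), an actin regulator, Lmcd1 (0.94), a LIM domain protein, Tssc4 (0.94), Myh9 (0.94), a non-muscle myosin heavy chain, and Eif3a (0.94), a translation initiation factor. The gene most like Ddit3 was Lama4, a laminin chain (r = 0.98), which fell with YAP5SA by 1.14 on the log2 scale (SE 0.22, adjusted p = 0.00313). The closest genes for the others were Selenof for Atf5 (0.96), Ran for Cebpb (0.96), Tspan9 for Asns (0.92), Actn4 for Chac1 (0.96), Rab21 for Trib3 (0.91), Rin3 for Ddit4 (0.95) and Spc24 for Sesn2 (0.91).

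The other 5 genes are known ATF4 targets with roles in amino acid supply, redox balance and growth control. Their promoters were searched for the C/EBP-ATF response element core, TGATGNAA on either strand, in RefSeq windows of GRCm38.p6 that run from 250 bases before to 50 bases after each start. All 9 genes matched a window. The core was present in 3 of the 9 genes (Asns, Chac1 and Trib3). By windows, it was in 3 of the 10 of these genes and in 3.97% of all 32851. The 3 matches are shown because they are in targets whose values follow, with the 8 matching letters in capitals and the gene's strand read 5′ to 3′; in Chac1 and Trib3 the match is on the other strand.
Asns: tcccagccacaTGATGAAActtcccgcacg
Chac1: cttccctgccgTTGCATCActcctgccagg
Trib3: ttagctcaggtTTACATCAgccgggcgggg
The Asns stretch is chr6:7693214-7693243 on the minus strand, 34 to 5 bases before the RefSeq start and inside an annotated exon. The Chac1 stretch is chr2:119351038-119351067 on the plus strand, 204 to 175 bases before the start. The Trib3 stretch is chr2:152344028-152344057 on the minus strand, 3 to 32 bases after the start. In the same windows the cyclic AMP response element TGACGTCA (1.79% of all windows), the TEAD core CATTCC (14.7%) and the C/EBP core TTGCGNAA (0.798%) had 0 matches in the 9 genes. A match is only a stretch of letters, and no match says only that the letters are not in these windows.

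Asns (chr6:7675169-7693254, minus strand) encodes asparagine synthetase. It measured 0.907, 3.65, 1.55, 2.35 and 2.20 CPM in Control 1 to 5 and 1.63, 1.87, 1.25 and 2.92 CPM in MEF2A 1 to 4. In YAP5SA 1 to 3 it measured 16.3, 2.38 and 8.82 CPM, and in YAP5SA_MEF2A 3.37 and 2.76 CPM. YAP5SA 1 and 3 stood above all other libraries, and YAP5SA 2 lay within the Control range. The change with YAP5SA was 2.11 ± 0.56 (adjusted p = 0.0242), a 4.32-fold rise. In batch 1 it was 2.00 ± 0.90 (adjusted p = 0.182) and in batch 2, from YAP5SA 3 alone, it was 2.11 ± 0.72. The call was lost without YAP5SA 1 (1.33 ± 0.63, adjusted p = 0.266), without YAP5SA 3 (2.15 ± 0.72, adjusted p = 0.122) and without Control 1 (1.86 ± 0.57, adjusted p = 0.0595). It was also lost with limma-voom (1.99 ± 0.72, its adjusted p = 0.0815) and with a term for sex (2.00 ± 0.65, adjusted p = 0.0549).

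Chac1 (chr2:119351229-119354381, plus strand) encodes an enzyme that breaks down glutathione. It had 17 counts in all of Control, every one in Control 3 (0.694 CPM), and 0 counts in the other 4 Control libraries. In MEF2A 1 to 4 it measured 0.381, 0.250, 0.720 and 0.547 CPM. In YAP5SA 1 to 3 it measured 4.07, 1.41 and 2.26 CPM, and in YAP5SA_MEF2A 1.75 and 3.65 CPM. All 5 libraries with YAP5SA were above all 9 without it. The fitted change with YAP5SA was 4.70 ± 1.32 (adjusted p = 0.0304), and pooled counts gave 15.1-fold. Without Control 3, Control has 0 counts and YAP5SA was at least 63.8-fold higher against a floor of 3 counts over the remaining Control libraries. Leaving out the one Control library with counts can only raise the fold, so this value is no lower bound for Control as a whole. In batch 1, where both Control libraries are at 0, the fold was at least 15.5 against the same floor. In batch 2, from YAP5SA 3 alone, the change was 3.27 ± 2.20. The call was lost without Control 1 (adjusted p = 0.0712), YAP5SA 1 (0.122), YAP5SA 3 (0.0800) or YAP5SA_MEF2A 2 (0.0521), and without Control 1 and 2 together (3.81 ± 1.40, adjusted p = 0.0919).

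Trib3 (chr2:152337422-152344032, minus strand) encodes a pseudokinase that restrains ATF4 and AKT signalling. It measured 1.47, 2.999, 0.286, 0.740 and 0.809 CPM in Control 1 to 5 and 1.36, 1.75, 2.88 and 0.425 CPM in MEF2A 1 to 4. In YAP5SA 1 to 3 it measured 4.77, 1.76 and 3.56 CPM, and in YAP5SA_MEF2A 1.90 and 1.70 CPM. Control 2 was above YAP5SA 2, and the groups overlapped. Its log2 fold change with YAP5SA was 1.48 ± 0.71 (adjusted p = 0.203), at 0.51 ± 0.72 in batch 1 and 2.53 ± 1.23 in batch 2. Without Control 1 and 2 it was 2.51 ± 0.82 (adjusted p = 0.0611).

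Ddit4 (chr10:59949669-59951834, minus strand) encodes REDD1, an inhibitor of the growth kinase mTORC1. It measured 1.59, 1.83, 3.14, 1.65 and 2.50 CPM in Control 1 to 5 and 0.926, 1.06, 1.49 and 1.70 CPM in MEF2A 1 to 4. In YAP5SA 1 to 3 it measured 11.1, 4.36 and 7.77 CPM, and in YAP5SA_MEF2A 6.24 and 3.81 CPM. As with Atf4, every library with YAP5SA was above every library without it. YAP5SA against Control gave 2.00 ± 0.45 on the log2 scale (adjusted p = 0.00918), a 4.01-fold rise. It was 2.13 ± 0.60 in batch 1 (adjusted p = 0.0568) and 1.67 ± 0.73 in batch 2, from YAP5SA 3 alone. Without YAP5SA 1 it was 1.53 ± 0.48 and was not called (adjusted p = 0.0901).

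Sesn2 (chr4:132492032-132510501, minus strand) encodes sestrin 2, a leucine sensor that also holds back mTORC1. It measured 8.62, 5.87, 3.18, 6.32 and 5.74 CPM in Control 1 to 5 and 7.62, 5.80, 4.61 and 6.08 CPM in MEF2A 1 to 4. In YAP5SA 1 to 3 it measured 7.98, 9.25 and 9.27 CPM, and in YAP5SA_MEF2A 9.19 and 7.66 CPM. All 5 libraries with YAP5SA were above the 4 MEF2A libraries, while Control 1 overlapped with them. With YAP5SA the log2 fold change was 0.52 ± 0.33 (adjusted p = 0.342), at 0.20 ± 0.36 in batch 1 and 0.86 ± 0.56 in batch 2.

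With MEF2A alone, 0 of the 9 genes were called against Control, and 0 had an unadjusted p under 0.05 in edgeR. DESeq2 and limma-voom also called 0 of the 9. Of all genes tested, 0.0167% were called in this comparison. The adjusted p of the 9 genes ran from 0.707 for Cebpb, at -0.99 ± 0.51, to 1 for Sesn2, at 0.00 ± 0.29. Atf4 was at -0.28 ± 0.21 and Ddit3 at 0.13 ± 0.19. In batch 1 alone Atf5 was called lower, at -1.93 ± 0.36 (adjusted p = 0.0309); the Control libraries there are Control 1 and 2. In batch 2 Atf5 was at 0.82 ± 0.42 (adjusted p = 0.923), and without Control 1 and 2 it was at 0.93 ± 0.35 (adjusted p = 0.531), the opposite sign and not called.

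With both viruses, 1 of the 9 genes was called against Control. Ddit3 was lower, at -1.30 ± 0.27 (adjusted p = 0.0160), and 0 were called higher, where 1.16% of all genes tested were higher and 0.195% lower. In batch 1 alone, the batch of both YAP5SA_MEF2A libraries, Ddit3 was at -1.40 ± 0.28 (adjusted p = 0.0209). Its call was lost without YAP5SA_MEF2A 1 (-1.10 ± 0.36, adjusted p = 0.376), without YAP5SA_MEF2A 2 (-1.51 ± 0.37, adjusted p = 0.0896) and without Control 1 (-1.28 ± 0.29, adjusted p = 0.0592). It was also lost without Control 1 and 2 together (-1.16 ± 0.34, adjusted p = 0.145), which leaves no Control library in batch 1, and with a term for sex (-1.10 ± 0.28, adjusted p = 0.103). Atf4 was at 0.84 ± 0.28 (adjusted p = 0.151) and Ddit4 at 1.52 ± 0.54 (adjusted p = 0.189), and for both genes the 2 libraries were above all 5 Control libraries. Chac1 was at 5.02 ± 1.53 (adjusted p = 0.116) and was called by DESeq2 (adjusted p = 0.0227) and limma-voom (adjusted p = 0.0145). Pooled counts gave 15.2-fold over all 5 Control libraries, and in batch 1 the fold was at least 14.7 against the floor. Without Control 3, the one Control library with counts, edgeR called it (adjusted p = 0.0051), at least 64.4-fold above the floor. That choice leaves a reference of 0 and can only raise the fold, so it adds no support. Asns was at 0.53 ± 0.69 (adjusted p = 0.809), Cebpb at 0.46 ± 0.64 (adjusted p = 0.825), Sesn2 at 0.34 ± 0.40, Trib3 at 0.30 ± 0.86 and Atf5 at 0.04 ± 0.64. Atf5 was at -0.81 ± 0.35 in batch 1 (adjusted p = 0.170) and at 2.22 ± 0.47 without Control 1 and 2, where it was called (adjusted p = 0.0390).

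**Figure D4:**
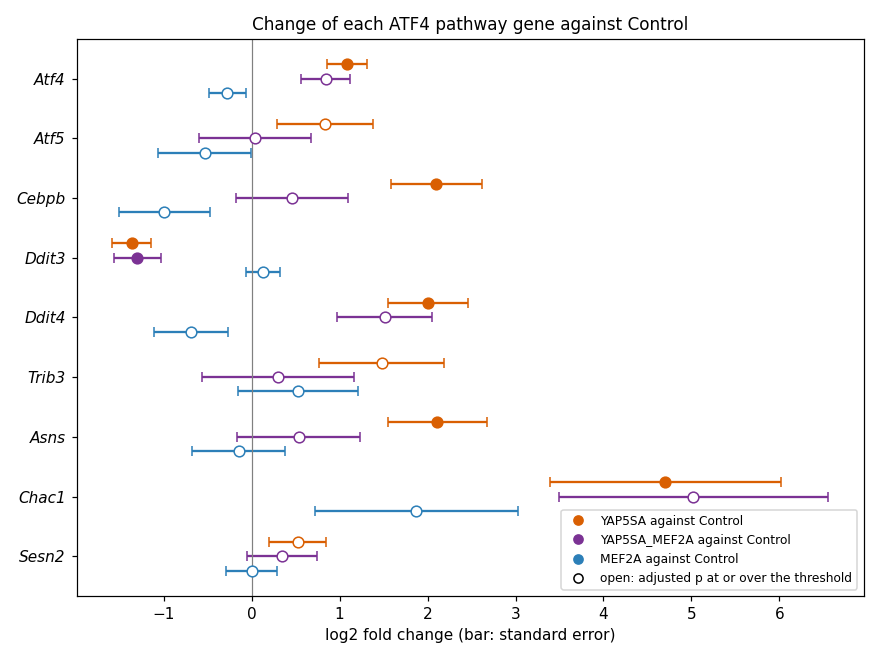
The log2 fold change (x axis) and its standard error for the 9 genes against Control, with YAP5SA in orange, YAP5SA_MEF2A in purple and MEF2A in blue. Filled points passed the adjusted threshold; Ddit3 is the one gene filled in both orange and purple. The 3 comparisons share the Control libraries.

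The virus groups were also set against each other. Against MEF2A, which received a virus too, YAP5SA was higher in 4 of the 9 genes and lower in 1, where 7.77% and 7.12% of all genes tested were called. Atf4 was 2.58-fold higher (1.37 ± 0.24, adjusted p = 0.00122), Ddit4 6.49-fold (2.70 ± 0.48, adjusted p = 0.00148), Cebpb 8.52-fold (3.09 ± 0.58, adjusted p = 0.00216) and Asns 4.78-fold (2.26 ± 0.60, adjusted p = 0.0176). Ddit3 was 2.81-fold lower (-1.49 ± 0.23, adjusted p = 0.000485). For these genes but Asns the YAP5SA and MEF2A libraries did not overlap, and the share of all genes for which this holds was not counted. In batch 1, Atf4 was at 1.35 ± 0.34 (adjusted p = 0.0631) and Ddit3 at -1.26 ± 0.28 (adjusted p = 0.0427). In batch 2, from YAP5SA 3 alone, they were at 1.30 ± 0.27 and -1.83 ± 0.31. Ddit4 was at 2.94 ± 0.61 (adjusted p = 0.0364) in batch 1 and 2.26 ± 0.80 in batch 2, and Cebpb at 2.34 ± 0.62 (adjusted p = 0.0719) and 3.97 ± 0.83. Cebpb was not called without YAP5SA 3 (2.19 ± 0.64, adjusted p = 0.0592). Asns was not called in batch 1 (2.40 ± 0.89, adjusted p = 0.161) and was at 2.07 ± 0.81 in batch 2. It was also not called without YAP5SA 1 (1.46 ± 0.66, adjusted p = 0.198), YAP5SA 3 (adjusted p = 0.0800) or MEF2A 1, 2 or 3 (adjusted p of 0.0588, 0.0547 and 0.0544). Atf5, at 1.37 ± 0.57 (adjusted p = 0.117), was called without YAP5SA 2 (1.72 ± 0.58, adjusted p = 0.0431) and without Control 1 and 2 (1.45 ± 0.30, adjusted p = 0.00419). It was also called with no filter, library totals alone or only the groups compared (adjusted p of 0.0105, 0.0193 and 0.0129). It was not called in batch 1 (1.15 ± 0.35, adjusted p = 0.105) or with a term for sex (0.52 ± 0.63, adjusted p = 0.632), and was at 1.81 ± 0.53 in batch 2. Chac1, at 2.83 ± 1.24 (adjusted p = 0.133), was not called, though all 3 YAP5SA libraries were above all 4 of MEF2A. It was called with no filter (adjusted p = 0.0499) and with only the groups compared (adjusted p = 0.0293). Sesn2 was at 0.52 ± 0.34 and Trib3 at 0.95 ± 0.75, and neither was called. All 3 YAP5SA libraries were male and 3 of the 4 MEF2A libraries female. In batch 1 the split was complete, so sex and group cannot be told apart there. With a term for sex Asns lost its call (2.10 ± 0.72, adjusted p = 0.0633) and Chac1 was at 0.61 ± 3.13 (adjusted p = 0.929). Atf4, Ddit3, Ddit4 and Cebpb kept their calls with that term.

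With both viruses against MEF2A, Atf4 (1.12 ± 0.27, adjusted p = 0.0388) and Ddit4 (2.21 ± 0.55, adjusted p = 0.0414) were higher and Ddit3 (-1.43 ± 0.27, adjusted p = 0.00887) was lower, where 1.61% of all genes tested were higher and 0.706% lower. In batch 1 alone, the values were 1.07 ± 0.34, 2.33 ± 0.60 and -1.27 ± 0.28, and 0 of the 3 were called (adjusted p of 0.152, 0.0940 and 0.0583). Without either YAP5SA_MEF2A library 0 of the 9 were called. Atf4 or Ddit4, or both, also lost the call without Control 1, 4 or 5 or any MEF2A library, with adjusted p of up to 0.152, while the log2 fold change stayed at 0.98 or more for Atf4 and 2.07 or more for Ddit4. With a term for sex Atf4 was not called (1.07 ± 0.29, adjusted p = 0.0714). Ddit4 (adjusted p = 0.0473) and Ddit3 (adjusted p = 0.0135) kept their calls with that term. With limma-voom Ddit4 was not called (2.05 ± 0.64, its adjusted p = 0.0908).

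With both viruses against YAP5SA alone, 0 of the 9 genes were called by edgeR, DESeq2 or limma-voom, where 0% of all genes tested were called by edgeR. Asns, at -1.58 ± 0.74, and Cebpb, at -1.64 ± 0.72, had an unadjusted p under 0.05 (0.0479 and 0.0363). For Cebpb both libraries lay below all 3 of YAP5SA. Ddit3 was at 0.06 ± 0.26, Atf4 at -0.25 ± 0.29 and Ddit4 at -0.49 ± 0.56. The interaction, which asks whether the change with one virus differs in the presence of the other, called 0 of the 9 by the same 3 tools, with 0 at an unadjusted p under 0.05 and 0% of all genes tested. It was 0.03 ± 0.35 for Atf4, -0.06 ± 0.32 for Ddit3 and -1.43 ± 0.89 for Asns. These values carry wide errors with 2 libraries in the group and do not show that the genes respond alike. By transcripts all 3 YAP5SA libraries were male and both YAP5SA_MEF2A libraries female. Between these groups the addition of MEF2A and sex cannot be told apart, and the interaction draws on the same groups. The dose was 1E11 genome copies per virus, so mice given both viruses also received more virus than mice given either alone. That difference cannot be told apart from the added transgene, here or in both viruses against MEF2A.

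Further genes of the pathway were taken from lists made by role. Of the 18 genes of the eIF2 kinases, eIF2B and the eIF2 phosphatase, 1 rose with YAP5SA and 1 fell, and the list median was -0.15 on the log2 scale, beside 0.06 for all genes tested. Of all genes tested 5.69% were called higher and 4.17% lower, so these counts are near the share over all genes. Ppp1r15a, the stress-induced phosphatase subunit that ends the response, rose by 1.19 ± 0.28 (adjusted p = 0.0109), from 12.96 ± 3.64 CPM in Control (SD, n = 5) to 31.2 ± 8.79 CPM (SD, n = 3). Dele1, which relays mitochondrial stress to an eIF2 kinase, fell by 0.85 on the log2 scale (SE 0.22, adjusted p = 0.0185), from 199.8 ± 35.6 to 115 ± 39.8 CPM. Neither was called without YAP5SA 1 or without YAP5SA 3, where Ppp1r15a was at 1.00 ± 0.30 and 1.22 ± 0.35.

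Of 10 bZIP partners and relatives of ATF4, 3 rose and 1 fell with YAP5SA, where 5.69% of all genes tested were higher and 4.17% lower. Cebpd, a C/EBP factor of acute inflammation, rose by 2.00 ± 0.45 (adjusted p = 0.00906) and Cebpa, a C/EBP factor of myeloid and fat cells, by 4.98 ± 1.35 (adjusted p = 0.0256). Both overlapped with Control. Neither was called without YAP5SA 1 or without YAP5SA 3, where Cebpd was at 1.16 ± 0.53 (adjusted p = 0.267), and Cebpa was not called without Control 1 or 4 either. YAP5SA 3 is the library with 1093 CPM of macrophage markers, whose part in these values was not tested. Cebpd shares 562 exon bases with Spidr on the opposite strand (3.56 ± 1.39, adjusted p = 0.113). Jdp2, an AP-1 repressor, rose by 0.90 ± 0.27 (adjusted p = 0.0461), and Nfe2l2, the antioxidant regulator NRF2, fell by 0.83 on the log2 scale (SE 0.26, adjusted p = 0.0497). The last 2 lost the call when most single libraries were left out.

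Of 13 genes of amino acid synthesis 1 rose and 2 fell, and the median was 0.64. Of all genes tested 5.69% were higher and 4.17% lower, and with so few calls these lists are described by their counts only. Psat1, a serine synthesis enzyme, rose by 1.48 ± 0.26 (adjusted p = 0.00175), from 14.2 to 19.1 CPM in Control to 34.6 to 69.4 CPM in YAP5SA. Psph, which catalyses the last step of the same path, fell by 0.91 on the log2 scale (SE 0.25, adjusted p = 0.0274), and Got1, the cytosolic aspartate aminotransferase, by 0.65 (SE 0.20, adjusted p = 0.0482). Psat1 kept its call without any single library, while Psph lost it without Control 1, YAP5SA 1 or YAP5SA 3 and Got1 when most single libraries were left out. Psph shares 452 exon bases with Cct6a on the opposite strand, which was at 0.23 ± 0.17 (adjusted p = 0.434). Of 10 transporters 1 rose, Slc7a5, the large neutral amino acid carrier, by 3.21 ± 0.48 (adjusted p = 0.000463), from 0.612 to 4.56 CPM in Control to 7.49 to 27.9 CPM in YAP5SA. Its call held without any single library. Of 13 tRNA synthetases 1 rose, Iars, by 0.89 ± 0.24 (adjusted p = 0.0270), and the median was 0.06, the same as for all genes tested. Iars lost its call without Control 1, Control 2, YAP5SA 1 or YAP5SA 3.

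Of 12 stress effectors and secreted factors that were tested (Fgf21, a stress hormone, was not), 1 rose and 1 fell, where 5.69% of all genes tested were higher and 4.17% lower. Stc2, a secreted glycoprotein, rose by 1.36 ± 0.34 (adjusted p = 0.0200) and Jag2, a Notch ligand, fell by 0.91 on the log2 scale (SE 0.25, adjusted p = 0.0277). Neither was called without YAP5SA 1 or YAP5SA 3. Stc2 was not called without Control 1 or Control 2 either, and was at 0.60 ± 0.27 without Control 1 and 2 (adjusted p = 0.169). Of 11 genes of mitochondrial protein quality control, 1 rose and the median was -0.23. That gene, Htra2, a protease of the intermembrane space, rose by 2.62 ± 0.28 (adjusted p = 1.8e-05), from 10.9 to 20.0 CPM in Control to 55.8 to 119 CPM in YAP5SA. It shares 753 exon bases with Aup1 and 535 with Loxl3 on the opposite strand, which were at 0.03 ± 0.16 and 0.58 ± 0.22 and were not called. Of 10 paralogues of the 9 genes, 2 rose, the same Cebpa and Cebpd.

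The genes of the unfolded protein response of the endoplasmic reticulum are the list with the most calls. This program shares the eIF2 kinase PERK with the ATF4 arm and has other sensors besides. Of 16, 7 rose with YAP5SA and 0 fell, with a median of 0.86, where 5.69% of all genes tested rose. Xbp1, the transcription factor of that program, was at 16.1 to 27.9 CPM in Control and 62.7 to 78.2 CPM in YAP5SA, a rise of 1.69 ± 0.20 (adjusted p = 6.3e-05). Manf, a secreted chaperone of the compartment, rose by 1.60 ± 0.33 (adjusted p = 0.00517), from 8.57 to 13.7 CPM to 20.5 to 51.3 CPM. Xbp1 kept its call without any single library, and Manf lost it without YAP5SA 3 (0.88 ± 0.36, adjusted p = 0.209). The count of 7 was 6 without Control 1 and 2 and 1 without YAP5SA 3. With both viruses 2 of the 16 rose, Xbp1 by 1.41 (adjusted p = 0.00513) and Dnajc3, an inhibitor of the eIF2 kinase PERK, by 1.17 (adjusted p = 0.0458). With MEF2A edgeR called 0 of the 16, and 3 had an unadjusted p under 0.05, all lower. The core TGATGNAA was in 0 of the 13 genes of this list that had a promoter window. Among such genes of the other lists it was in 5 of 9 tRNA synthetases (Aars, Gars, Iars, Tars and Yars). It was in 3 of 8 bZIP relatives, 3 of 10 stress effectors, 2 of 7 transporters and 2 of 11 amino acid synthesis genes. For the eIF2 list it was in 1 of 13, for mitochondrial quality control in 0 of 8 and for the paralogues in 0 of 7.

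**Figure D5:**
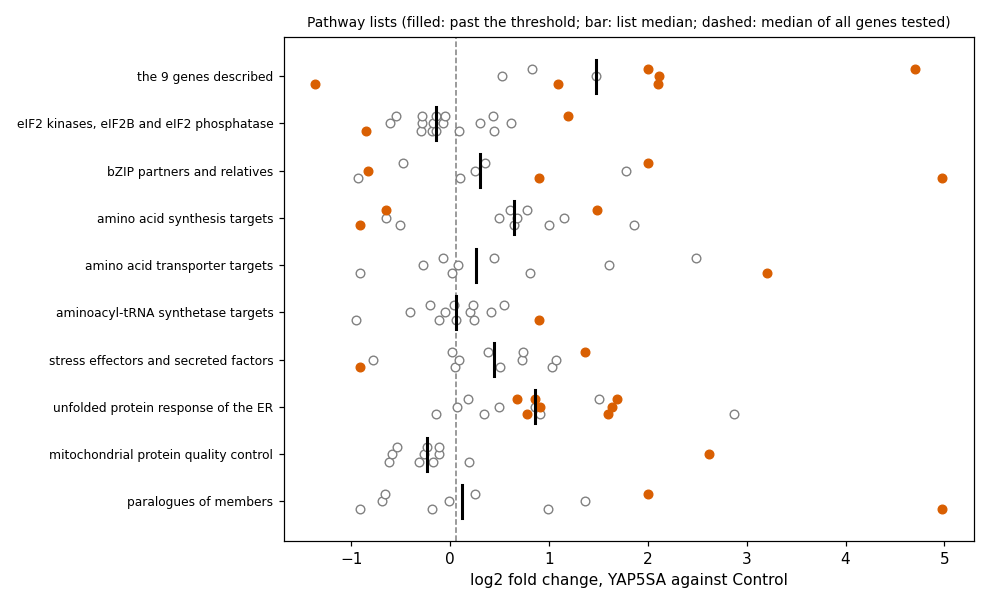
The log2 fold change with YAP5SA against Control (x axis) of each tested gene in the 9 genes described and in the lists by role. Filled points passed the adjusted threshold, black bars are list medians and the dashed line is the median of all genes tested (0.06). The unfolded protein response list has 7 filled points, all to the right, and the 9 genes have 5 to the right and Ddit3 to the left.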

How the data were processed

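The members and lists were chosen with earlier results of these data known. The authors deposited raw counts, 1 whole number per Ensembl gene and library. Per the submitters' processing notes the authors used STAR, limma and edgeR with GRCm38; their versions, the annotation and the counting program are not given in the sources used here. Libraries were polyA-selected and non-directional, per the labels' protocols. Symbols and loci came from GENCODE vM21, by ID, for 54409 of 54446 genes.

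Counts were filtered with edgeR's filterByExpr (minimum count 10, total 15), scaled by TMM and fitted with edgeR 4.0.16 in R 4.3.3 (glmQLFit with robust dispersion, glmQLFTest) on group plus batch in all 14 libraries, so that the group of 2 shares the estimate of the spread (biological coefficient of variation 0.503). Tests were two-sided, with Benjamini-Hochberg adjustment over 17987 genes in each of 7 comparisons. DESeq2 1.42.0, limma-voom (limma 3.58.1), other scalings, filters and samples were alternatives, and the fit was tested on simulated counts. Every adjusted p is edgeR's unless another tool is named. Named from each list were the 2 genes with the smallest p among those called with YAP5SA, or all where 5 or fewer were called; Dnajc3 was named as 1 of only 2 calls with both viruses, after its values were seen. Likeness used log2 CPM with a prior count of 2. Promoter windows came from RefSeq.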

Additional observations from a re-analysis of the deposited data

Results flagged for a closer look

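Dixon's test for a library far from the others was run on 18 sets of values, from 9 genes in the Control and MEF2A groups, and chance passes its level in about 5% of sets. Chac1 was at 0.694 CPM in Control 3 and at 0 in the other 4 Control libraries; with the others at 0, any count in the last library passes, so the test says nothing more there. Cebpb was at 5.48 CPM in Control 2, and the gap to the next library was 0.741 of the range. Control 2 also had the highest summed level of macrophage markers in its group (209 CPM) and a mitochondrial share of 67.5%. The part of these in the Cebpb value was not tested.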

How the results depend on the processing

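Over 30 alternative settings, 108 of 1844 fold changes of the 9 genes changed their call and 0 reversed. A change of sign where neither fit made a call is not counted as a reversal. The 1844 include MEF2A against Control, both viruses against YAP5SA and the interaction, where the main fit called 0 of the 9. The share that changed is therefore no measure of how firmly a call holds. With YAP5SA against Control, the 6 calls became 2 in batch 1 only, 2 when only the groups compared were fitted and 0 without Control 1 and 2 and YAP5SA 3, where Control is left in batch 2 and YAP5SA in batch 1 and 75 genes in all are called beside 1773. The 7 unfolded protein response calls became 11 with no filter, 3 in batch 1 only, 3 with only the groups compared and 0 without those 3 libraries. MEF2A against Control went from 0 to 1 call in batch 1 only. With both viruses against Control, the 1 call became 2 with no filter, with DESeq2, with limma-voom, in batch 1 only and with only the groups compared, and 0 with a term for sex and 0 without those 3 libraries. Without Control 1 and 2, the count for both viruses against Control stayed at 1, with Atf5 in place of Ddit3. YAP5SA against MEF2A went from 5 calls to 2 in batch 1 only. With both viruses against MEF2A, the 3 calls became 0 in batch 1 only, 1 without those 3 libraries and 5 with only the groups compared.

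Leaving out 1 library at a time gave 2 to 6 calls for YAP5SA against Control, 1 to 8 for the unfolded protein response, 0 to 2 for both viruses against Control, 3 to 6 for YAP5SA against MEF2A and 0 to 3 for both viruses against MEF2A. MEF2A against Control, both viruses against YAP5SA and the interaction gave 0 each time. Where 1 library of a group remains, it is assumed to vary like the other groups.

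Same-numbered libraries of different groups had correlations of -0.18 to 0.089 between their deviations from group means, so the numbers do not pair them. A replicate block in place of batch gave 2 calls for YAP5SA against Control (938 genes in all) and 1 for both viruses against MEF2A.

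Counting only the promoter bases before the start, TGATGNAA was in 2 of the 9 genes in place of 3. The settings without Control 1 and 2, without YAP5SA 3 as well and with a term for sex, and all those for the unfolded protein response, were chosen after seeing the data. Low counts limit Chac1, Trib3, Ddit4 and Asns, whose Control totals were 17, 86, 219 and 201 counts.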
